A study of Mus musculus with 62 samples.

Results

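The comparison described here sets running mice that received both nicotinamide riboside (NR) and pterostilbene (PT) against running mice that received neither compound. Its members are the libraries whose labels give training, NR and PT (8 mice) and those whose labels give training without either compound (7 mice), 15 of the 62 libraries of a factorial study of NR, PT and voluntary wheel running. All 15 libraries were poly(A) RNA of quadriceps, the large thigh muscle, from male mice. Every mouse in both groups had trained by voluntary running, so that the training label is shared and is not compared. The sample labels used here hold no measure of the amount run, so whether it differed between the groups was not tested. The title of the study gives an intravenous route for NR; the labels name no dose, length of treatment, strain or age. The labels also place each mouse in 1 of 2 cohorts and on 1 of 8 days of termination: the group with both compounds held 4 mice of cohort 2 and 4 of cohort 1, the group with neither held 4 and 3, and 7 days had 1 mouse of each group. The marker genes of the labelled tissue were present, with the fast myosin Myh4 at a mean of 55116 CPM, that is counts scaled to a library total of 1000000, with both compounds and 58110 CPM with neither, and the skeletal actin Acta1 at 29077 and 28129 CPM.

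NR is a form of vitamin B3 from which cells make NAD, the electron carrier of glycolysis and the citric acid cycle and the substrate that sirtuins, PARPs and CD38 consume. Nicotinamide riboside kinases carry out the first step of that route, and the kinase encoded by Nmrk2 is the muscle form; most NAD in muscle is otherwise remade from nicotinamide by the enzyme Nampt. PT is a stilbene of plants related to resveratrol and is usually studied as an activator of sirtuin and antioxidant pathways. Endurance running is known to raise mitochondrial gene expression in muscle and to move fibres towards slower, more oxidative types.

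No gene passed the test in running mice. Of 14549 genes tested with edgeR's quasi-likelihood test and Benjamini-Hochberg adjustment, 0 were called (0%) and the smallest adjusted p was 1.00. At an unadjusted p below 0.05 there were 479 genes (3.29%), 264 with a positive log2 change (1.81%) and 215 with a negative one (1.48%). DESeq2 called 0 genes and gave 507 at an unadjusted p below 0.05. The log2 change, here always both compounds over neither, had a median of 0.00 over all genes, was above 0 for 7376 of them (50.7%), and ran from -0.28 at the 5th percentile to 0.26 at the 95th percentile.

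The precision of the comparison depended on the level of the gene. The median standard error (SE) of the log2 change was 0.11, and the 95% interval lay wholly within a 1.5-fold change in either direction for 11308 genes (77.7%) and within 2-fold for 13661 (93.9%). Among the 6361 genes between 10 and 100 CPM, 97.7% had an interval within 1.5-fold, whereas among the 1904 genes under 1 CPM only 4.52% did. A log2 change beyond 1.5-fold was estimated for 233 genes, 179 of which were under 1 CPM.

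**Figure D1:**
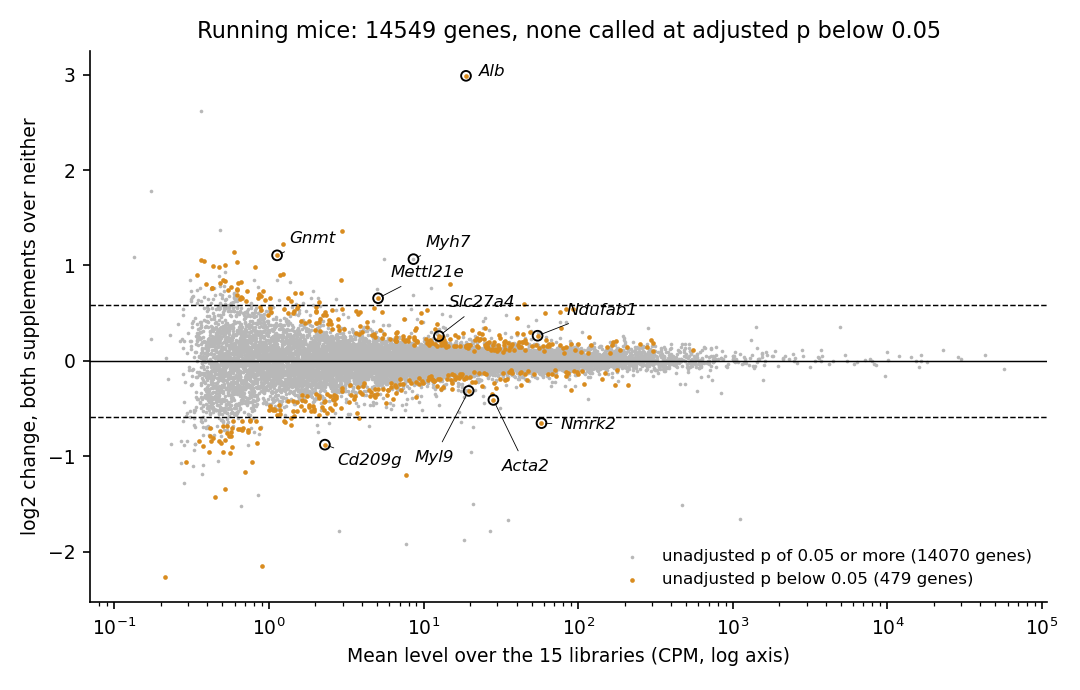
Log2 change (both compounds over neither, running mice) of 14549 genes against their mean level in CPM on a log axis. Orange points are the 479 genes at an unadjusted p below 0.05, dashed lines mark a 1.5-fold change, and the points narrow around 0 as the level increases.

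Genes of NAD metabolism had a median log2 change of 0.00 over the 17 tested members of the list for NAD synthesis and nicotinamide clearance, with 9 above 0, and 1 member, Nmrk2, was at an unadjusted p below 0.05. Nmrk2 had levels of 26.3, 40.6 and 76.7 CPM (lowest, median and highest) with both compounds, against 36.4, 58.9 and 150.5 CPM with neither. Its mean was 45.7 ± 18.4 CPM with both compounds and 71.9 ± 37.8 CPM with neither (SD, n = 8 and 7), and levels are given with their SD and log2 changes with their standard error throughout. The groups overlapped over most of their range, the highest library was replicate 2 without either compound, and the mouse with both compounds had the higher level on 1 of 7 shared days. The log2 change of Nmrk2 was -0.65 ± 0.29 (SE), with a 95% interval of -1.23 to -0.07 and an unadjusted p of 0.0293, and edgeR's Benjamini-Hochberg adjusted p was 1.00. Without that highest library it was -0.42, and it was below 0 in each of the 27 alternative settings tried.

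The other Nmrk2 groups of the study were used only to place these values. In running mice Nmrk2 averaged 42.1 ± 20.8 CPM with NR alone and 87.8 ± 32.6 CPM with PT alone; those comparisons share the mice with neither compound, and their log2 changes against them were -0.85 and 0.32. In sedentary mice, which share no library with the running ones, it averaged 40.0 ± 18.6 CPM with both compounds and 104.2 ± 32.5 CPM with neither, a log2 change of -1.41 ± 0.28. The difference between the running and the sedentary log2 change was 0.75 ± 0.40 (SE; unadjusted p = 0.0653), and edgeR's quasi-likelihood test with Benjamini-Hochberg adjustment did not call it. The mouse gene lies on the minus strand of chromosome 10, at 81198170 to 81202051 of mm10, within the span of Atcayos, a gene on the plus strand at 81194609 to 81209161. Whether counting used strand is not given in the labels or notes, and without strand the reads of this overlapping pair cannot be told apart.

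Atcayos averaged 109 ± 10.4 CPM with both compounds and 101 ± 9.30 CPM with neither in running mice, a log2 change of 0.11 ± 0.08. Its partner on the other strand, Atcay, which encodes caytaxin, had a log2 change of -0.10 ± 0.18. The remaining enzymes of NAD synthesis were close to 0. Nampt had 165 ± 12.8 CPM with both compounds and 164 ± 12.7 CPM with neither, and its 95% interval of -0.13 to 0.13 on the log2 scale was among the narrower ones of this list. Nmrk1, the kinase of most other tissues, had a log2 change of 0.16 ± 0.10, and Nadk, which phosphorylates NAD to NADP, one of -0.04 ± 0.08. Nnmt, the enzyme that methylates nicotinamide for excretion, had one of -0.35 ± 0.32, with values of 0.42 in cohort 2 alone and -1.24 in cohort 1 alone.

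The 15 sirtuins, PARPs and NAD ectoenzymes had a median log2 change of 0.04, with 10 above 0 and 0 at an unadjusted p below 0.05. The nuclear deacylase Sirt1 had a log2 change of 0.05 ± 0.09, the mitochondrial Sirt3 one of 0.04 ± 0.09 and Sirt5 one of 0.11 ± 0.10. By cohort, Sirt3 had -0.16 in cohort 2 and 0.28 in cohort 1, a difference of -0.44 with an unadjusted p of 0.0185, and Sirt5 had -0.14 in cohort 2 and 0.37 in cohort 1, a difference of -0.52 with an unadjusted p of 0.0121; edgeR's test called neither difference after Benjamini-Hochberg adjustment. Parp3, a mono-ADP-ribosyltransferase of DNA repair, had 99.96 CPM with both compounds and 92.9 CPM with neither, a log2 change of 0.11 ± 0.06. Cd38, the ectoenzyme that degrades NAD, had a log2 change of -0.12 ± 0.12.

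The nuclear-encoded subunits of oxidative phosphorylation, the respiratory chain and ATP synthase, had small positive changes: 77 of the 78 tested had a log2 change above 0, against 50.7% of all genes, and their median was 0.12. In sedentary mice 75 of the 78 were above 0 with a median of 0.10, and the median difference between running and sedentary mice was 0.02. In running mice 4 members were at an unadjusted p below 0.05 and 0 were called. Ndufab1, the acyl carrier protein of complex I and of lipoic acid synthesis, had 42.5, 59.9 and 76.7 CPM (lowest, median and highest) with both compounds, against 44.1, 46.9 and 56.7 CPM with neither. The range with both compounds reached beyond the range with neither at both ends, with replicates 3 and 7 highest. The estimated log2 change was 0.26 ± 0.09, with an unadjusted p of 0.00401. Ndufa3 averaged 127 CPM with both compounds and 106 CPM with neither, a log2 change of 0.25 ± 0.10, and Ndufb3 had one of 0.18 ± 0.09; both are accessory subunits of complex I.

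The 8 tested genes of the mitochondrial genome had a median log2 change of 0.08, all 8 above 0, with 0.12 ± 0.10 for mt-Cytb of complex III. Pyruvate oxidation and the citric acid cycle gave 23 of 24 above 0 with a median of 0.09, including fumarase Fh1 and the pyruvate dehydrogenase subunit Pdhb at 0.14 ± 0.07 each. The mitochondrial pyruvate carrier subunit Mpc2 had a log2 change of 0.16 ± 0.09. Pdk4, the kinase that switches pyruvate dehydrogenase off, varied widely, with 438 ± 145 CPM with both compounds and 558 ± 292 CPM with neither and a log2 change of -0.24 ± 0.44. Of these 3 lists 0 members were called.

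Fatty acid uptake and oxidation and glycolysis stood near the background. Of 30 genes of fatty acid uptake and oxidation 16 had a log2 change above 0, with a median of 0.02, and Cpt1b, which carries acyl groups into muscle mitochondria, averaged 10.8 ± 1.17 CPM with both compounds and 12.6 ± 2.27 CPM with neither, a log2 change of -0.21 ± 0.10. Of 19 genes of glycolysis and glycogen 14 were above 0, also with a median of 0.02; Pgk1 and the glycogen synthase Gys1 each had 0.12 ± 0.07. Ppargc1a, the coactivator of mitochondrial biogenesis, had 38.2 ± 6.19 CPM with both compounds and 35.2 ± 3.82 CPM with neither, a log2 change of 0.11 ± 0.10. Slc2a4, the insulin-responsive glucose transporter GLUT4, had 509 ± 34.6 and 484 ± 39.3 CPM and a log2 change of 0.08 ± 0.06. The 26 exercise regulators and myokines had a median of 0.02 with 17 above 0.

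**Figure D2:**
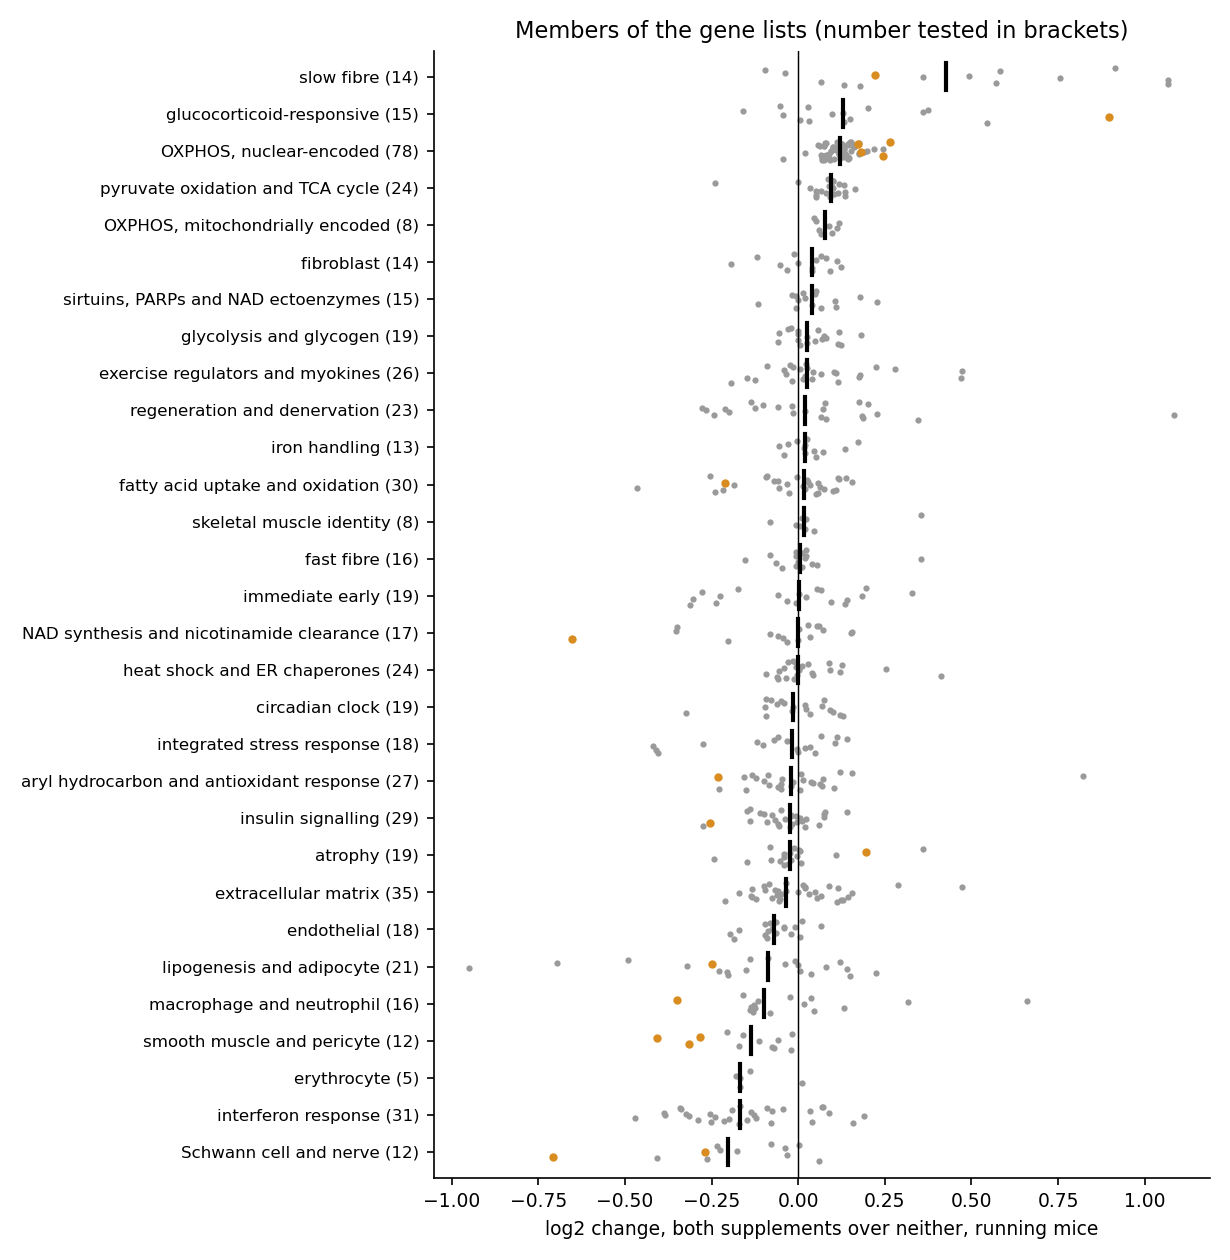
Log2 change (both compounds over neither, running mice) of each tested member of the gene lists, 1 row a list with the number of members in brackets. The bar is the list median, orange points are members at an unadjusted p below 0.05; among the lists shown, which leave out the ribosomal-RNA-like genes and the lymphocyte markers, the medians range from -0.20 for Schwann cell and nerve genes to 0.43 for slow-fibre genes.

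The energy lists split by cohort. In a fit of each cohort alone, nuclear-encoded oxidative phosphorylation genes had a median log2 change of -0.03 in cohort 2, with 20 of 78 above 0, and of 0.28 in cohort 1, with 77 of 78 above 0. For pyruvate oxidation and the citric acid cycle the medians were -0.05 in cohort 2 (5 of 24 above 0) and 0.25 in cohort 1 (23 of 24 above 0). For fatty acid uptake and oxidation they were -0.20 in cohort 2 (1 of 30 above 0) and 0.27 in cohort 1 (27 of 30 above 0). In cohort 2 the summed level of the fatty acid list had a median of 4162 CPM with both compounds and 4673 CPM with neither, and in cohort 1 a median of 5437 and 4464 CPM. When single mice were left out, the oxidative phosphorylation median ran from -0.07 to 0.03 in cohort 2 and from 0.22 to 0.38 in cohort 1. The fatty acid median ran from -0.28 to -0.07 in cohort 2, where it was nearest to 0 without replicate 6 of the mice with neither compound, and from 0.18 to 0.41 in cohort 1. For the citric acid cycle list it ran from -0.11 to 0.01 in cohort 2 and from 0.19 to 0.34 in cohort 1.

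Genes of connective tissue, fat and blood split the other way. Extracellular matrix genes had a median log2 change of 0.21 in cohort 2 (32 of 35 above 0) and of -0.27 in cohort 1 (1 of 35 above 0), and fibroblast markers of 0.24 in cohort 2 (13 of 14) and -0.22 in cohort 1 (0 of 14). Macrophage and neutrophil markers had 0.19 in cohort 2 (15 of 16) and -0.40 in cohort 1 (1 of 16), and haemoglobin and other erythrocyte genes 0.30 in cohort 2 (5 of 5) and -0.68 in cohort 1 (0 of 5). Lipogenesis and adipocyte genes had 0.23 in cohort 2 (17 of 21) and -0.55 in cohort 1 (5 of 21). The satiety hormone gene Lep, made by fat cells, ranged from 1.45 to 33.6 CPM with both compounds and from 3.15 to 73.1 CPM with neither, and its log2 change was 0.15 in cohort 2 and -2.25 in cohort 1.

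Some of these values rested on single mice. The summed erythrocyte level in cohort 1 was 92.8, 107.8, 115.3 and 41.5 CPM with both compounds, against 77.5, 109.6 and 221.7 CPM with neither, and the highest was replicate 3, a library also rich in ribosomal-RNA-like reads. Without it the erythrocyte median was 0.07 in cohort 1 (3 of 5 above 0) and 0.11 over all running mice (5 of 5). That mouse also had the highest macrophage and neutrophil sum of its cohort and group, 441.6 CPM beside 316.8 and 241.9 CPM, and without it that median was -0.14 in cohort 1 (2 of 16). In cohort 2, without replicate 7 of the mice with both compounds, the macrophage and neutrophil median was -0.05 (5 of 16), the fibroblast median 0.01 (8 of 14) and the extracellular matrix median 0.05 (23 of 35). In cohort 1 the extracellular matrix median ran from -0.33 to -0.25 when single mice were left out.

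The difference between the cohorts was tested in a fit with a separate effect for each. Over all genes 0 of 14549 were called by edgeR's quasi-likelihood test with Benjamini-Hochberg adjustment (0%), 1056 were at an unadjusted p below 0.05 (7.26%), and the median difference, cohort 2 minus cohort 1, was 0.00. That unadjusted count moved with single mice: it was 670 (4.57%) without replicate 6 of those with neither compound, 697 (4.79%) without replicate 2 of those with both, and up to 1301 (8.95%) without replicate 5 of those with both. For fatty acid uptake and oxidation 16 of 30 members were at an unadjusted p below 0.05 with a median difference of -0.46, and for nuclear-encoded oxidative phosphorylation 16 of 78 with a median of -0.31. For the citric acid cycle list it was 9 of 24 with a median of -0.30, and for the extracellular matrix 7 of 35 with a median of 0.45. Among single genes the difference was -0.41 ± 0.15 for Echs1, an enoyl-CoA hydratase of fatty acid oxidation, -0.46 ± 0.18 for Cpt1b and 1.66 ± 0.62 for Nnmt. The fit without a filter on low counts called 364 genes, 335 of them among the 14549. Its lowest Benjamini-Hochberg adjusted p by edgeR's test was 3.13e-108, beside 0.662 with the filter. The genes of smallest p without the filter were Mir6236, Gm23935, CT010467.1, Gm24187, Lars2 and Alb. Of these, CT010467.1 and Lars2 belong to the ribosomal-RNA-like list, whose 4 tested members had a median difference of 2.60 with the filter. Alb stood at 274 CPM in 1 cohort 2 mouse, replicate 6 with both compounds. The 364 genes are therefore not read as a difference between the cohorts. The cause was not tested. The lists were compared by cohort after their values were seen. In RNA from whole muscle, fewer cells of a type and less RNA per cell cannot be told apart.

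**Figure D3:**
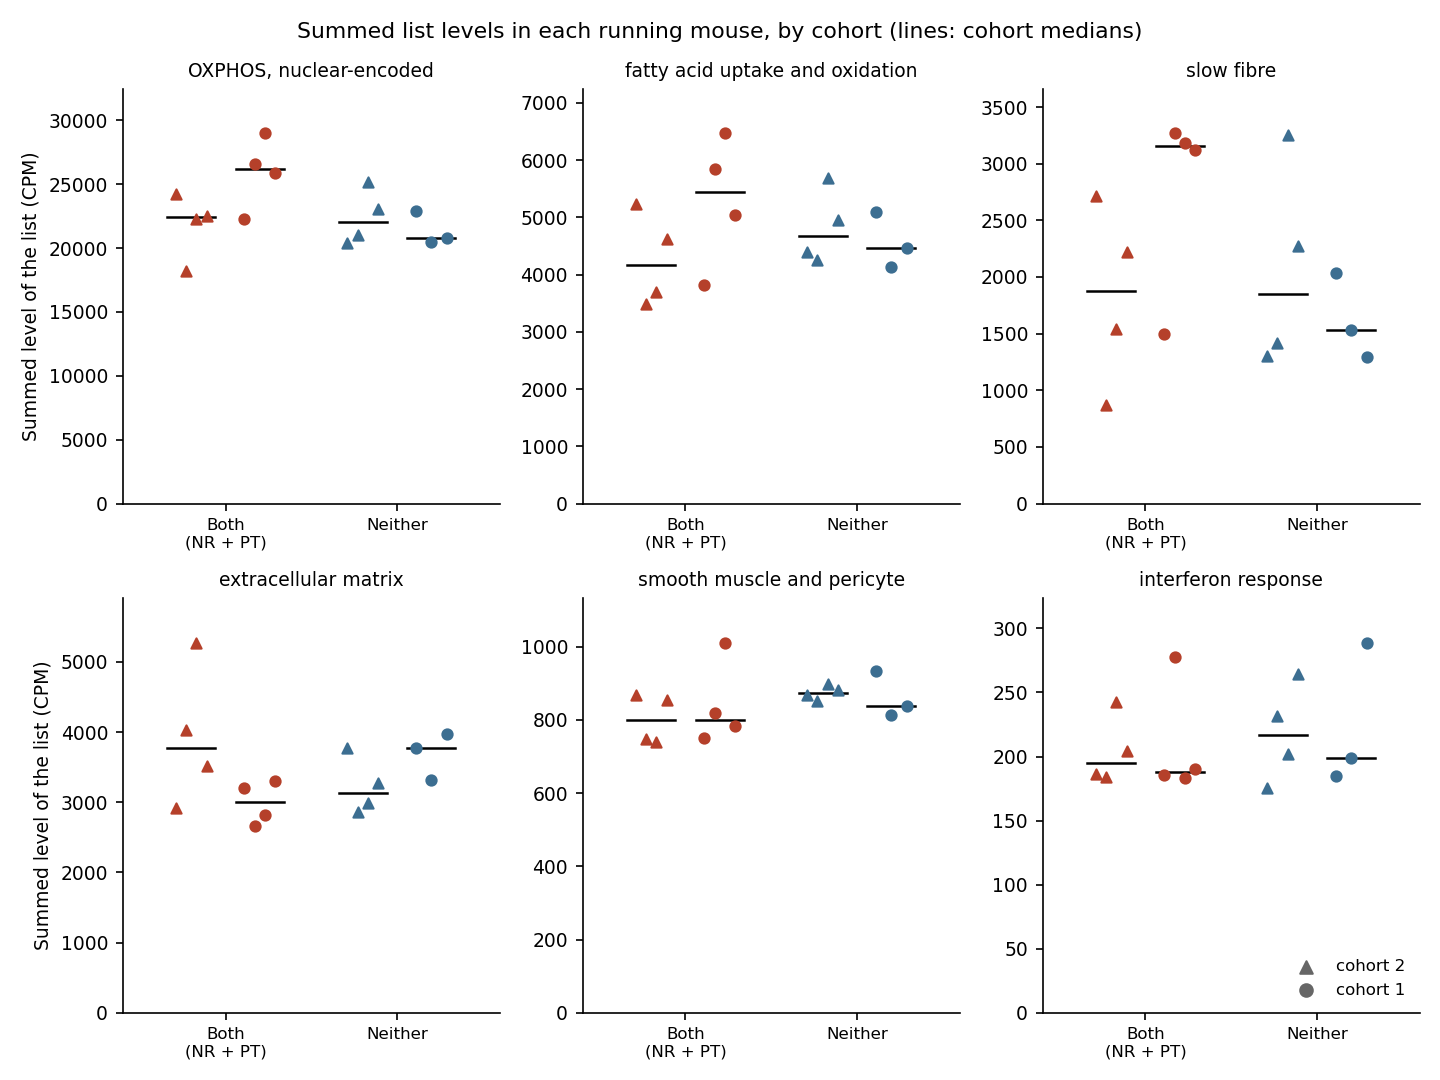
Summed level (CPM) of 6 gene lists in each running mouse, both compounds left and neither right, with triangles for cohort 2, circles for cohort 1 and lines at the cohort medians. For nuclear-encoded oxidative phosphorylation the cohort 2 mice have medians of 22398 CPM with both compounds and 22032 CPM with neither, and the cohort 1 mice 26227 CPM with both compounds and 20795 CPM with neither.

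Among lists with more than 1 tested member, slow-fibre genes had the highest median, 0.43, with 12 of 14 above 0. This value moved with single mice and with cohort. Myh7, the slow myosin heavy chain, had 0.317, 2.52 and 58.0 CPM (lowest, median and highest) with both compounds, against 0.338, 0.940 and 25.4 CPM with neither. Replicates 4 and 5 with both compounds had 29.4 and 58.0 CPM, replicate 6 with neither had 25.4 CPM, and the other 12 libraries had at most 3.43 CPM. The log2 change of Myh7 was 1.07 ± 0.88 (unadjusted p = 0.230), and it was 0.00 without replicate 5 of the mice with both compounds and 2.92 without replicate 6 of those with neither. The list median was 0.07 with 9 of 14 above 0 without replicate 5, and 0.79 without replicate 6. In cohort 2 the summed level of the list had a median of 1877 CPM with both compounds and 1848 CPM with neither. In cohort 1 those medians were 3152 and 1534 CPM. The median difference, cohort 2 minus cohort 1, was -0.71, with 12 of 14 members below 0 and 1 at an unadjusted p below 0.05.

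Myl2, Tnnt1 and Atp2a2 were also highest in replicates 4 and 5 among the mice with both compounds and in replicate 6 among those with neither, whereas the summed level of the list was highest in replicates 2 and 3 with both compounds, at 3267 and 3184 CPM, and in replicate 6 with neither, at 3257 CPM. The slow regulatory light chain Myl2 had 0.414 to 21.9 CPM with both compounds and 0.0980 to 14.6 CPM with neither, a log2 change of 1.07 ± 0.77, and the slow troponin Tnnt1 had one of 0.76 ± 0.58. Atp2a2, the slow-fibre calcium pump SERCA2, was the 1 member at an unadjusted p below 0.05, with 67.0 ± 19.9 CPM with both compounds and 56.7 ± 8.70 CPM with neither and a log2 change of 0.22 ± 0.11. Fast-fibre genes had no common direction, with 8 of 16 above 0 and a median of 0.00. Myh4, the myosin of the fastest fibres, had a log2 change of -0.08 ± 0.09, Myh2 one of -0.01 ± 0.53, with -0.81 in cohort 2 and 0.86 in cohort 1, and Myh1, the myosin of intermediate fast fibres, one of 0.35 ± 0.29, with -0.24 in cohort 2 and 1.06 in cohort 1. The neonatal myosin Myh8 had 0.08 ± 0.15, and Sln, which encodes the calcium pump inhibitor sarcolipin, had 0.07 ± 0.59 at a mean under 1 CPM in both groups.

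Smooth muscle and pericyte markers had a single direction over all running mice. All 12 tested had a log2 change below 0, with a median of -0.14, beside 7173 of all 14549 genes below 0. At an unadjusted p below 0.05 there were 3 of them, beside 3.29% of all genes, and 0 were called. Their summed level was 739 to 1011 CPM with both compounds, highest in replicate 3, and 813 to 934 CPM with neither. Acta2, smooth muscle actin, had 16.7, 23.4 and 36.4 CPM with both compounds (lowest, median and highest), against 29.8, 32.7 and 38.0 CPM with neither. Replicate 3 with both compounds lay within the range of the mice with neither, and the other 7 lay below it. The log2 change of Acta2 was -0.41 ± 0.14, with an unadjusted p of 0.00620 and 1 of 7 days higher with both compounds. Myl9, the light chain of smooth muscle myosin, had 17.5 ± 2.38 CPM with both compounds and 21.9 ± 1.98 CPM with neither, a log2 change of -0.31 ± 0.10 with an unadjusted p of 0.00214, and Myh11, its heavy chain, had -0.28 ± 0.12.

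The median of the smooth muscle and pericyte list had the same sign in both cohorts. It was -0.20 in cohort 2 (0 of 12 above 0) and -0.07 in cohort 1 (2 of 12). With body weight change added to the fit the median was -0.08. Endothelial markers were nearer to 0, with 3 of 18 above 0 and a median of -0.07, and the adhesion molecule Pecam1 had -0.10 ± 0.09. In sedentary mice the smooth muscle and pericyte median was -0.02 with 3 of 12 above 0, and Acta2 had -0.09 there; the difference for Acta2 between running and sedentary mice was -0.32 with an unadjusted p of 0.113.

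Schwann cell and nerve markers had 2 of 12 above 0 and a median of -0.20, with 2 at an unadjusted p below 0.05. Mbp, myelin basic protein, had 12.1 ± 1.68 CPM with both compounds and 14.7 ± 2.03 CPM with neither, a log2 change of -0.27 ± 0.11. The myelin-associated glycoprotein Mag, at a mean of 0.435 CPM with both compounds and 0.743 CPM with neither, had one of -0.71 ± 0.33. Without the libraries rich in ribosomal-RNA-like reads and replicate 6 with both compounds, a set chosen after seeing the data, the median was -0.04 with 5 of 12 above 0. The share of nerve or vessel in each piece of muscle was not measured.

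Interferon-response genes had 7 of 31 above 0 and a median of -0.17 in running mice, with 0 at an unadjusted p below 0.05. Oasl2, an antiviral oligoadenylate synthetase-like gene, had 3.85, 4.42 and 6.86 CPM with both compounds and 4.12, 6.36 and 9.32 CPM with neither (lowest, median and highest), and a log2 change of -0.39 ± 0.21. The groups overlapped, and the level was higher with both compounds on 2 of 7 shared days. Irf7, a master regulator of the response, had -0.14 ± 0.21 and Oas1a had -0.24 ± 0.34. In sedentary mice the same list had 0 of 31 above 0, a median of -0.56 and 20 members at an unadjusted p below 0.05, with -0.89 for Irf7. Of all genes, 4.96% were at an unadjusted p below 0.05 there, and 0 members of the list were called by edgeR's test. The summed interferon level of the sedentary mice was 142.0 to 179.5 CPM with both compounds, against 165.0 to 512.0 CPM with neither, where replicate 3 stood apart from the next highest at 261.9 CPM. Without that library the sedentary median was -0.38 with 3 of 31 above 0, 13 members were at an unadjusted p below 0.05 and Irf7 had -0.65; it was -0.65 to -0.48 without each of the other sedentary libraries. The difference between running and sedentary mice was 0.75 for Irf7, with an unadjusted p of 0.0137 by edgeR's quasi-likelihood test. For 4 of 31 members the difference was at an unadjusted p below 0.05, beside 3.09% of all genes, and 0 were called. Without the libraries rich in ribosomal-RNA-like reads the running median was 0.07 with 18 of 31 above 0, so its sign depended on those libraries, and it was -0.06 without replicate 3 of the mice with neither compound alone.

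Immune cell markers had no common direction in all running mice. The 16 macrophage and neutrophil markers had a median of -0.10 with 6 above 0. Cd163, a scavenger receptor of resident macrophages, had 19.98, 22.7 and 32.1 CPM with both compounds, against 25.3, 28.7 and 43.2 CPM with neither (lowest, median and highest); the level was lower with both compounds on all 7 shared days, although the groups overlapped. Its log2 change was -0.35 ± 0.14 with an unadjusted p of 0.0149. S100a9, a neutrophil protein, had 0.66 ± 0.46. Of 9 lymphocyte markers 1 was high enough to be tested: the T cell receptor subunit gene Cd3e had 1.77, 3.71 and 4.83 CPM with both compounds, against 2.05, 2.30 and 2.80 CPM with neither. 6 of the 8 mice with both compounds lay above all 7 with neither and 1 lay below them all, and its log2 change was 0.54 ± 0.20 with an unadjusted p of 0.0101.

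Stress and antioxidant genes were mostly near 0, with single members away from it. Of 15 glucocorticoid-responsive genes 12 were above 0 with a median of 0.13. The metallothionein gene Mt2 had 0.498, 1.31 and 2.97 CPM with both compounds, against 0.450, 0.842 and 1.13 CPM with neither, a log2 change of 0.90 ± 0.35, and its partner Mt1 had 0.38 ± 0.25; metallothioneins bind zinc and copper. The transcription factor gene Cebpd had 0.55 ± 0.32. Of 27 genes of the aryl hydrocarbon and antioxidant response, a pathway that stilbenes are known to act on, 12 were above 0 with a median of -0.02. Nqo1, the quinone reductase that is its standard reporter, had 22.6, 26.1 and 31.5 CPM with both compounds, against 27.8, 30.7 and 34.7 CPM with neither. Its log2 change was -0.23 ± 0.08 with an unadjusted p of 0.00478, and NR alone and PT alone, compared with the same mice, gave -0.17 and -0.18. Gclc, a subunit of the enzyme that starts glutathione synthesis, had -0.16 ± 0.09.

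Insulin signalling and protein turnover were close to 0 as lists. Of 29 insulin-signalling genes 9 were above 0 with a median of -0.02. Grb10, an adaptor that restrains the insulin receptor, had 27.3, 39.4 and 46.6 CPM with both compounds, against 36.6, 46.7 and 57.5 CPM with neither, a log2 change of -0.26 ± 0.09 with an unadjusted p of 0.00419. Its level was higher with both compounds on 1 of 7 shared days. In sedentary mice it had a log2 change of 0.19, and the difference between running and sedentary mice was -0.45 ± 0.12 with an unadjusted p of 0.000396, which edgeR's test did not call after Benjamini-Hochberg adjustment. Of 19 atrophy genes 6 were above 0 with a median of -0.02. Map1lc3a, an autophagosome protein, had 0.19 ± 0.09, and the muscle ubiquitin ligase genes Trim63 and Fbxo40 had -0.15 ± 0.08 and -0.08 ± 0.05.

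The 21 lipogenesis and adipocyte genes had 7 above 0 and a median of -0.09, and 1 member, Plin4, was at an unadjusted p below 0.05. Plin4, a lipid droplet protein, had 193 ± 26.6 CPM with both compounds and 232 ± 27.0 CPM with neither, a log2 change of -0.25 ± 0.11, and Cidec, which enlarges fat cell droplets, had -0.70 ± 0.48. Ucp1, the uncoupling protein that defines brown fat, had a count of 0 in all 15 libraries. The iron uptake receptor gene Tfrc had 209.8 ± 46.2 CPM with both compounds and 192 ± 43.7 CPM with neither, a log2 change of 0.17 ± 0.16; with PT alone, against the same mice, it had 0.63. Cdkn1a, the cell cycle inhibitor p21, had -0.24 ± 0.25 in running mice and 0.58 in sedentary mice.

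The other lists had medians between -0.17 and 0.04. Those medians were -0.17 for 5 erythrocyte genes, -0.03 for 35 extracellular matrix genes, -0.02 each for 18 genes of the integrated stress response and 19 circadian clock genes, and 0.00 each for 24 heat shock genes and 19 immediate early genes. They were 0.02 each for 13 iron-handling genes, 23 genes of regeneration and denervation and 8 genes of muscle identity, and 0.04 for 14 fibroblast markers. In each of these lists 0 members were at an unadjusted p below 0.05.

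Among the 20 genes of smallest unadjusted p, 17 had an estimated change under 1.5-fold. These genes were chosen by p in the same mice, so their counts of shared days add no separate evidence. Slc27a4, the fatty acid transport protein FATP4 on chromosome 2 (mm10, 29802634 to 29817522), came first, with 12.3, 13.9 and 14.9 CPM with both compounds (lowest, median and highest), against 10.4, 11.3 and 12.6 CPM with neither. Replicate 7 was the 1 mouse with neither compound whose level exceeded the lowest with both, and the level was higher with both compounds on all 7 shared days. Its log2 change was 0.26 ± 0.07, with a 95% interval of 0.12 to 0.40 and an unadjusted p of 0.000444, and it was 0.23 in cohort 2 and 0.31 in cohort 1. In sedentary mice it was -0.03.

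Mettl21e, a lysine methyltransferase gene of skeletal muscle, had 4.35, 6.02 and 8.64 CPM with both compounds, against 2.42, 3.94 and 5.50 CPM with neither. The groups overlapped between 4.35 and 5.50 CPM, and the level was higher with both compounds on all 7 shared days. Its log2 change was 0.66 ± 0.21 (unadjusted p = 0.00320), with 0.58 in cohort 2 and 0.77 in cohort 1. In sedentary mice, which share no library with these, it averaged 6.12 ± 1.92 CPM with both compounds and 3.61 ± 0.759 CPM with neither, a log2 change of 0.72 with an unadjusted p of 0.000931, and edgeR's test called it after Benjamini-Hochberg adjustment in neither comparison.

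Of the other 18 genes, 11 had positive log2 changes. Bloc1s3, a subunit of a complex for lysosome-related organelles, had 0.41 ± 0.12, Vrk3, a kinase of the vaccinia-related family, 0.22 ± 0.06, and Pabpc4, a cytoplasmic poly(A)-binding protein, 0.17 ± 0.05. Rai14, an actin-associated ankyrin-repeat protein, had 10.0 ± 1.73 CPM with both compounds and 7.83 ± 0.944 CPM with neither, a log2 change of 0.34 ± 0.10. Slit1, a secreted axon guidance ligand, had 2.35 ± 0.296 and 1.61 ± 0.387 CPM and a log2 change of 0.56 ± 0.17; both it and Rai14 were higher with both compounds on all 7 shared days. Dtnb, the dystrophin-associated beta-dystrobrevin, had 0.54 ± 0.17, and Plcl1, an inactive relative of phospholipase C, 0.41 ± 0.13. Inafm1, Cmss1 and the zinc finger gene Gzf1 had 0.24, 0.24 and 0.21, with 0.00 in cohort 2 and 0.45 in cohort 1 for Gzf1.

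The other 7 genes had negative log2 changes. Apart from Myl9, given above, Cd209g, a C-type lectin of the DC-SIGN family, had 1.70 ± 0.881 CPM with both compounds and 2.99 ± 1.47 CPM with neither, a log2 change of -0.88 ± 0.27. It was lower with both compounds on all 7 shared days. Mettl18, a histidine methyltransferase gene, had -0.43 ± 0.13, the splicing factors Gpatch1 and Snw1 had -0.25 ± 0.08 and -0.19 ± 0.06, the transcription cofactor Ssbp2 had -0.19 ± 0.06 and the zinc finger gene Zfp251 had -0.21 ± 0.07. The last of the 11 with a positive change, Gnmt, a glycine methyltransferase abundant in liver, had a log2 change of 1.11 ± 0.36, but replicate 6 with both compounds had 6.69 CPM and the other 14 libraries had at most 1.29 CPM.

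That replicate also held nearly all reads of Alb, the albumin gene of liver, which was named after its values were seen. Alb had 0.143, 0.517 and 274 CPM with both compounds, against 0.201, 0.392 and 2.13 CPM with neither. Its log2 change was 2.99 ± 1.03, and -0.49 without replicate 6. With neither day nor time of termination in the fit, Alb was the 1 gene called, with a log2 change of 5.54 and an edgeR Benjamini-Hochberg adjusted p of 0.0203. The source of these reads was not tested.

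2 genes, also named after their values were seen, had levels that did not overlap between the groups, 1 in each direction (0.00687% of genes each). Gpc3, a heparan sulfate proteoglycan on the cell surface, had 5.82, 8.39 and 8.97 CPM with both compounds, against 9.13, 10.4 and 11.8 CPM with neither, and a log2 change of -0.38 ± 0.13 with an unadjusted p of 0.00559. Cfap157, a cilia-associated gene, had 0.559, 0.717 and 0.789 CPM with both compounds, against 0.196, 0.396 and 0.538 CPM with neither, a log2 change of 0.78 ± 0.28 with an unadjusted p of 0.00672.

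**Figure D4:**
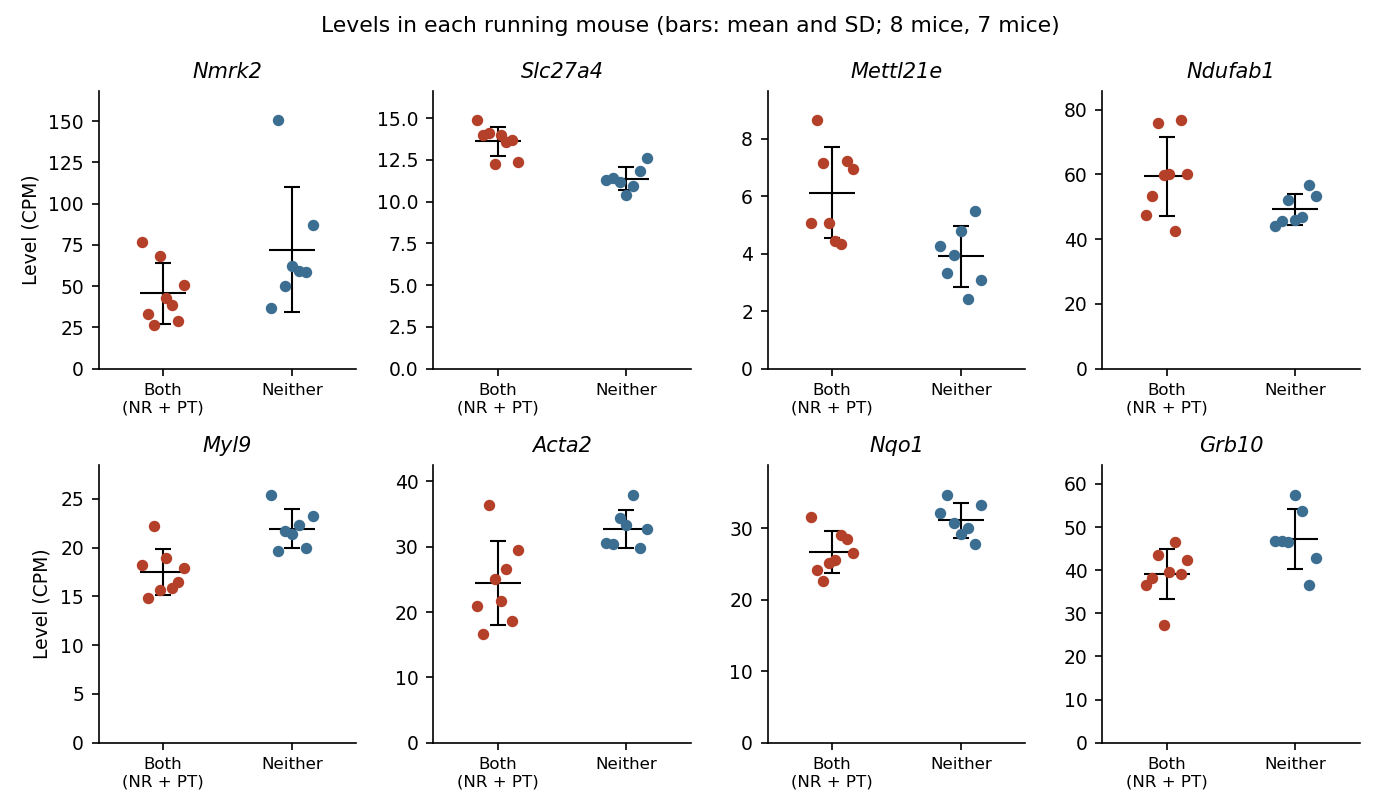
Level (CPM) of 8 genes in each running mouse, both compounds left and neither right, with the mean and SD of each group. Slc27a4 shows 1 mouse with neither compound above the lowest with both, whereas Nmrk2 overlaps over most of its range, with 1 mouse with neither compound at 150.5 CPM.

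The same comparison in sedentary mice called 1 gene of 14549 (0.00687%), Atcayos, with a log2 change of 0.45 ± 0.07 and an adjusted p of 0.00180 by edgeR's quasi-likelihood test with Benjamini-Hochberg adjustment. It was called without each of the 16 sedentary libraries in turn. In cohort 2 alone, in cohort 1 alone and without the libraries rich in ribosomal-RNA-like reads, 0 genes were called, so Atcayos was not called there. In the full sedentary comparison Nmrk2 had an adjusted p of 0.0575 by the same test, and 721 genes (4.96%) were at an unadjusted p below 0.05. A test of the difference between the running and sedentary changes called 0 of 14549 genes (0%), with 450 (3.09%) at an unadjusted p below 0.05 and 486 by DESeq2, which also called 0. The difference for Atcayos was -0.33, with an unadjusted p of 0.00258. Of the 479 genes at an unadjusted p below 0.05 in running mice, 299 (62.4%) had the same sign in sedentary mice, beside 8126 of all 14549 (55.9%), and 31 were at an unadjusted p below 0.05 in both.

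Within running mice, a test of whether the change with both compounds departed from the sum of the changes with each alone called 0 genes (0%), with 462 (3.18%) at an unadjusted p below 0.05; DESeq2 called 0 with 461. NR alone called 0 genes with 423 (2.91%) at an unadjusted p below 0.05 and 451 by DESeq2, and PT alone 0 with 327 (2.25%) and 346, and DESeq2 also called 0 in each. These 3 comparisons share the mice with neither compound, so their values are given side by side only. The median of the nuclear-encoded oxidative phosphorylation list was 0.12 with both compounds, -0.03 with NR alone and 0.01 with PT alone, and that of the smooth muscle and pericyte list was -0.14, 0.01 and -0.11. For slow-fibre genes the medians were 0.43, -0.32 and -0.15, and for interferon-response genes -0.17, -0.25 and -0.05.

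Body weight differed between the groups. The labels give a change in body weight without its unit: it was -5.2, -1.75 and -0.2 (lowest, median and highest) with both compounds, against -1.8, 0.7 and 3.5 with neither. All 8 mice with both compounds lay below 0, as did 2 of the 7 with neither, and the ranges overlapped between -1.8 and -0.2. The means were -2.14 ± 1.95 with both compounds and 0.757 ± 2.06 with neither (SD), a difference of -2.89 with a two-sided exact permutation p of 0.0159. On each of the 7 shared days the mouse with both compounds had the lower value, by 0.9 to 4.2, and the exact sign-flip permutation p of 0.0156 is the smallest that 7 pairs allow. The mean was -0.457 with NR alone and 0.225 with PT alone in running mice; in sedentary mice it was 1.95 with both compounds and 3.38 with neither.

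**Figure D5:**
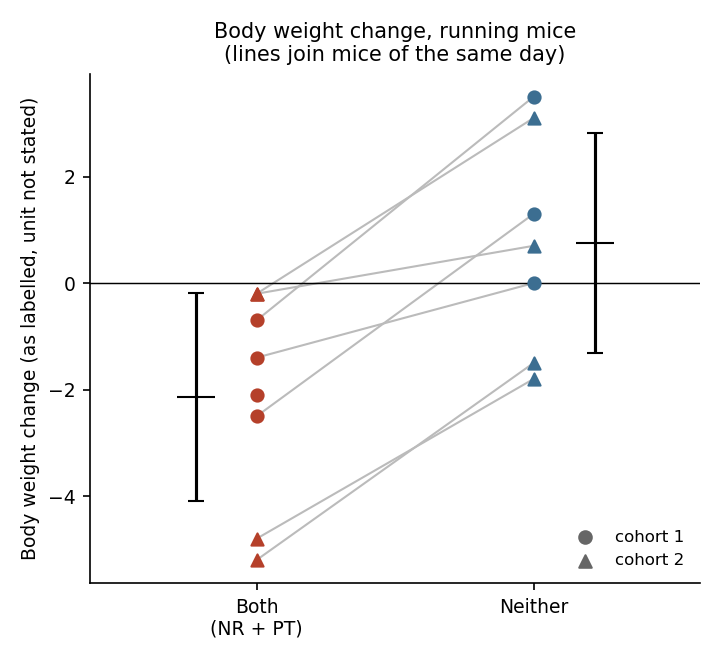
Change in body weight (unit not given in the labels) of each running mouse, both compounds left and neither right, with lines joining mice of the same day of termination. All 7 lines run upwards to the mouse with neither compound, and the 1 mouse with no partner was terminated on day 4.

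The difference was -2.73 in cohort 2 (exact permutation p = 0.229), where the smallest possible p is 0.0286. It was -3.28 in cohort 1 (exact permutation p = 0.0571), and this p is the smallest that the two-sided test allows with 4 and 3 mice. All cohort 1 mice with both compounds lay below all cohort 1 mice with neither. A fit of gene expression with body weight change added called 0 genes and gave 441 at an unadjusted p below 0.05.

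Total counts, in units of 1000000, were 9.19 to 27.2 with both compounds and 10.2 to 20.8 with neither, the mitochondrially encoded share was 10.3% to 16.1% and 10.6% to 13.9%, and the RNA integrity number was 9.4 to 9.9 and 9.5 to 9.9. Ribosomal-RNA-like reads took 0.0370% to 0.300% of counts with both compounds and 0.0416% to 0.979% with neither. The 4 tested genes of that kind had a median log2 change of -1.58, and 0.17 without the rich libraries. Replicate 5 with both compounds and replicates 3 and 7 with neither were among 8 of 62 libraries with over 5 times the median share. Without those libraries 0 genes were called and 773 were at an unadjusted p below 0.05. No difference in these 4 measures was detected, with a lowest adjusted p of 0.794 in exact permutation tests.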

How the data were processed

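Quadriceps RNA of 62 male mice was sequenced, per the labels' protocols, as 52-bp paired reads from Illumina TruSeq Stranded mRNA libraries. The authors deposited raw counts per gene, made, per the submitters' processing notes, with STAR 2.7.3a and featureCounts 2.0.0 on mm10; neither the strand setting of counting nor the annotation used is stated there or in the labels. Symbols came from the GENCODE M21 annotation (55394 of 55487 gene IDs matched). Genes were filtered with edgeR 4.0.16 filterByExpr (minimum count 10, minimum total 15), scaled by TMM, and fitted with the robust quasi-likelihood model in R 4.3.3 to group, day and time of termination in all 62 libraries (46 residual degrees of freedom), with Benjamini-Hochberg adjustment at 0.05 over all 14549 genes. CPM values use the same scaling. The cohort test fitted groups by cohort. The main running fit and the cohort fit were also run on counts simulated from their fitted values with known changes in some genes. The outcome is not given here. The other comparisons and the fit without a filter on low counts were not simulated.

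Named genes were those called, then those of smallest p up to 20 with a mean of at least 1 CPM and predicted genes skipped, the 3 members of smallest p of each of 32 lists, and a set of NAD, fibre and other genes; members and lists were chosen with earlier results of these data known. 1 gene that this rule names is not reported here. Alternatives were DESeq2 1.42.0, RLE scaling, no filter, other design terms, single cohorts and leaving out libraries. Each mouse is 1 replicate. Same-numbered mice did not deviate together, so numbers were taken as names. Exact permutation tests used scipy 1.17.1 in Python 3.11.15. Total counts per library, in units of 1000000, ran from 5.64 to 30.8.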

Additional observations from a re-analysis of the deposited data

Results flagged for a closer look

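Values were examined in 178 groups: 84 genes and 5 library or body measures, each in mice with both compounds and with neither. In 18 of them the highest or lowest mouse stood apart from the others by Dixon's criterion. Chance marks about 1 in 20 groups of independent, normally distributed values. The groups here share mice and their normality was not tested, so the 18 cannot be set against that rate. Replicate 6 with neither compound was the highest of its group for the slow-fibre genes Myh7 (25.4 CPM, next 2.37), Myl2 (14.6 CPM, next 3.50) and Tnnt1 (9.43 CPM, next 3.23), and also for Myh1 (8006 CPM), Pdhb (284 CPM) and Zfp251 (14.1 CPM). Replicate 6 with both compounds was the highest for Alb (274 CPM, next 0.783) and Gnmt (6.69 CPM, next 1.29), both genes abundant in liver. Replicate 5 with both compounds had the highest ribosomal-RNA-like share, 0.300% of counts, and the lowest level of Cebpd, 3.32 CPM. Replicate 3 with both compounds was the lowest for Mettl18 (1.79 CPM) and Nadk (22.03 CPM), replicate 1 the highest for Dtnb (4.25 CPM) and replicate 7 the highest for S100a9 (1.35 CPM). With neither compound, replicate 1 was the highest for Pecam1 (99.5 CPM), replicate 2 for Alb (2.13 CPM), replicate 3 for Cd209g (5.95 CPM) and replicate 7 for Sln (1.61 CPM).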

How the results depend on the processing

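The count of 0 called genes in running mice held in each alternative but 1: the fit with neither day nor time called 1 gene, Alb. Genes at an unadjusted p below 0.05 numbered 476 with RLE scaling, 1010 of 35005 without a filter on low counts, 406 of 13723 from the libraries of the comparison alone, 484 with purification pool added, 454 in cohort 2, 1145 in cohort 1, and 365 to 617 when single libraries were left out. With the replicate number as a block 0 genes were called and 357 were at an unadjusted p below 0.05. Same-numbered mice had deviations correlated at -0.30 to 0.09, so the block is not a pairing. Mice of the same day had deviations correlated at -0.12 to 0.12, so counts over shared days rest on the labels alone. In sedentary mice the count of 1 called gene was 6 with DESeq2, 2 with neither day nor time and 2 with the replicate block. It was 0 in cohort 2 alone, in cohort 1 alone, without the libraries rich in ribosomal-RNA-like reads, and without those and replicate 6 with both compounds, and 1 to 3 when single running or single sedentary libraries were left out. The difference between cohorts was called for 364 genes without a filter on low counts and for 0 with RLE scaling or without any single library. The body weight difference missed the threshold in cohort 2 (-2.73). In cohort 1 (-3.28) it could not reach the threshold, because the smallest p that the exact permutation test allows there is 0.0571. Over both cohorts the exact permutation p of this difference was 0.00599 to 0.0340 when single mice were left out. Of 132 named genes 131 were called in no setting, 86 had 1 sign in all 27 settings and 46 changed sign in at least 1, with none called on reversal. Counts limit genes under 1 CPM, where intervals were wide.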
